A study of Mus musculus with 6 samples.

Results

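The Toll-like receptors are a family of germline-encoded receptors of innate immunity, and 10 mouse members were grouped here by gene symbol: Tlr1, Tlr2, Tlr3, Tlr4, Tlr5, Tlr6, Tlr7, Tlr8, Tlr9 and Tlr13. Every probe annotated with one of these symbols on the Illumina MouseWG-6 v2.0 BeadChip was used, which gave 15 probes among the 45281 probes on the array. Of these, 13 probes were above background on at least 3 of the 6 arrays (detection p under 0.05), and they measured 9 of the 10 members among 10838 genes tested. The family was chosen by symbol after differences between the groups on these arrays had been seen, so the values below describe its members and their p-values are no independent support for the choice.

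The arrays measured RNA of tumours formed by 4T1 cells, a mouse mammary carcinoma line, on day 7 after injection into a mammary fat pad of female BALB/c mice. In the uPA overexpression group (n = 3) the injected cells carried a lentivirus that expresses mouse urokinase plasminogen activator (uPA, encoded by Plau), and in the empty vector group (n = 3) they carried the same kind of virus without the insert. Both groups therefore share the line, the host strain, the virus and the day. The RNA came from whole tumours of hosts with an intact immune system, so carcinoma cells and infiltrating host cells were measured together, and the labels do not say that the 3 samples of a group came from separate mice. The p-values measure the spread between these samples alone.

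Toll-like receptors detect molecules of microbes and products of damaged tissue. Tlr1, Tlr2, Tlr4, Tlr5 and Tlr6 act mainly at the cell surface, while Tlr3, Tlr7, Tlr8, Tlr9 and Tlr13 act in endosomes and bind nucleic acids. Nearly all signal through the adaptor Myd88, Tlr3 signals through Ticam1, and Tlr4 uses both routes, which leads to NF-kappa B and interferon regulatory factors and to cytokine transcription. Macrophages express many of the members, which is why the macrophage receptor genes Csf1r and Adgre1 serve as a yardstick below.

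Promoter windows of 4 members that rose or fell are shown, and each holds a PU.1 core or a kappa B motif. Windows without either motif are not shown, so this set cannot tell whether a motif goes with a direction. In the windows shown, Tlr1 and Tlr13 hold a PU.1 core, and both genes rose with the uPA overexpression label. Tlr2, which also rose, and Tlr3, which fell, both hold a kappa B motif. Each sequence is the RefSeq window of GRCm38.p6 from 250 bases before to 50 bases after an annotated start, read 5′ to 3′ on the gene's strand. Capitals mark the PU.1 core GAGGAA in Tlr1 (chr5:64933509-64933808, minus strand) and Tlr13 (chrX:106143025-106143324, plus strand). They mark the kappa B motif GGGANTTNC in Tlr2 (chr3:83841559-83841858, minus strand) and Tlr3 (chr8:45410331-45410630, minus strand).
Tlr1: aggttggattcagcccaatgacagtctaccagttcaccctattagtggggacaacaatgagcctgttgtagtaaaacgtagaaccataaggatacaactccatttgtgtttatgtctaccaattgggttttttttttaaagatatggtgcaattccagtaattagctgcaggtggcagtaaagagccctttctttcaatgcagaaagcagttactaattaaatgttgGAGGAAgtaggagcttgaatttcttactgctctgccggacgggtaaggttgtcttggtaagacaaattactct
Tlr13: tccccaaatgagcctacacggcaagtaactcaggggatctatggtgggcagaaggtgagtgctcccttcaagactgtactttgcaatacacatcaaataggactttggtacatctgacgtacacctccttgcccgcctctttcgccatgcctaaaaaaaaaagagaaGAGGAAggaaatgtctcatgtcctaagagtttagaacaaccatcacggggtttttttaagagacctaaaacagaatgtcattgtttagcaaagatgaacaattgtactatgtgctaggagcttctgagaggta
Tlr2: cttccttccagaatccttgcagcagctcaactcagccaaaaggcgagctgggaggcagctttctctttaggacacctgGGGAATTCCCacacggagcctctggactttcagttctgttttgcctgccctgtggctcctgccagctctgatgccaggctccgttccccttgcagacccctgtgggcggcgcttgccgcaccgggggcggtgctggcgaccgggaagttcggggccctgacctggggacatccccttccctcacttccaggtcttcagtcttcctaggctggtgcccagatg
Tlr3: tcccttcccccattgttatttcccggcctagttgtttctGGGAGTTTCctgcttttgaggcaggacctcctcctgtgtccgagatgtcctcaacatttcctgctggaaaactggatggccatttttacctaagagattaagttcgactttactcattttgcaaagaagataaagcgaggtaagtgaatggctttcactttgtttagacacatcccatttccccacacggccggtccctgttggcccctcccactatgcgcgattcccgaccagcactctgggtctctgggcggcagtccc
The motifs were searched on both strands. In Tlr2 the matches at -172 and -171 relative to the start overlap on opposite strands. The PU.1 core lay at -23 in Tlr1 and at -83 in Tlr13, and the kappa B match in Tlr3 lay at -211. The table held 10 windows for 8 members, and none for Tlr4 or for Tlr7, the member with the largest rise. Another window of Tlr1, and both windows of Tlr6, which rose, held neither a PU.1 core nor a kappa B motif. A PU.1 core was found in 4 of the 10 windows (1 each of Tlr1, Tlr8, Tlr9 and Tlr13), against 28.3% of all 32851 mouse promoters of the same length. Of these genes, Tlr8 did not pass the test for a difference and Tlr9 was not above background. A kappa B motif was found in 1 window each of Tlr2 and Tlr3, against 4.26% of all promoters. These counts were not tested against the shares of all promoters. The sequence AP-1 TGANTCA was found in Tlr9 (7.81% of all promoters), and TATAAA in Tlr6 and Tlr8 (13.6%). A match describes the letters of the window and says nothing of binding. Tlr1 lies next to Tlr6 on chromosome 5, and Tlr8 next to Tlr7 on chromosome X.

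The targeted gene was checked first. Plau read 11.94, 12.28 and 12.20 log2 units in the tumours labelled uPA overexpression, against 12.97, 13.16 and 12.70 in the empty vector tumours. The groups did not overlap, and Plau was lower by label, with a log2 difference of -0.80 (SE 0.151, adjusted p = 0.0306, limma with Benjamini-Hochberg adjustment over all genes). The probe's direction therefore goes against the label, the call was lost when any 1 array was left out (adjusted p between 0.0524 and 0.0974), and each direction below is stated for the tumours labelled uPA overexpression. Values are background-corrected, quantile-normalised log2 intensities unless stated otherwise, and a difference is the labelled uPA overexpression mean minus the empty vector mean. Mean raw intensity ranged from 415.7 to 460.8 and the share of probes detected from 43.6% to 46.1% over the 6 arrays.

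Of the 9 members tested, 5 rose in the tumours labelled uPA overexpression (Tlr1, Tlr2, Tlr6, Tlr7 and Tlr13), 1 fell (Tlr3) and 3 did not pass the test (Tlr4, Tlr5 and Tlr8). Tlr9 was not tested. Over all 10838 genes, 2.62% rose and 3.46% fell at the same threshold of adjusted p under 0.05. The groups did not overlap for 6 members that were higher and 1 that was lower, against 14.3% and 15.5% of all genes. The median difference was 0.61 for the members and -0.00248 for all genes tested. Leaving out 1 array changed the number of members called: without empty vector replicate 1 or replicate 3, 0 of the 9 passed; without uPA overexpression replicate 1 or replicate 3, only 3 passed; and the signs of all 9 stayed the same in these 6 fits. In bulk tumour RNA, fewer cells of a type and less RNA per cell cannot be told apart, and this applies to every result here.

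**Figure D1:**
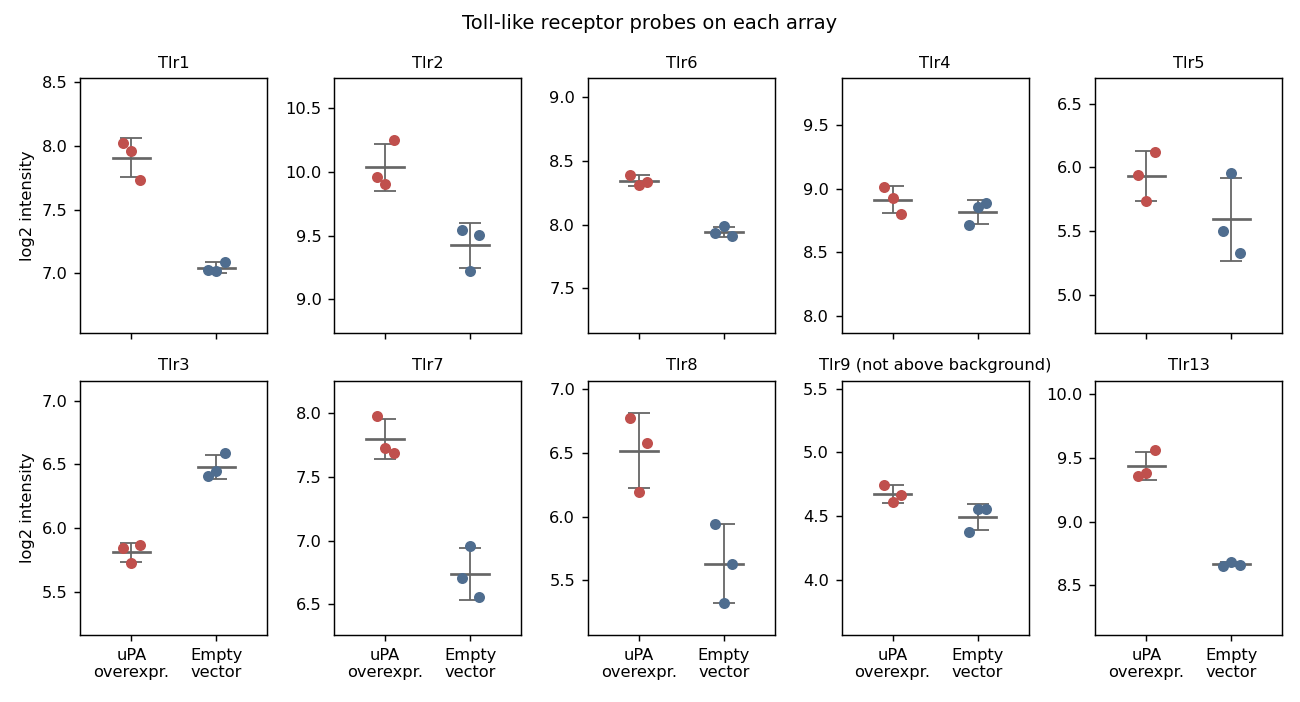
Normalised log2 intensity of the highest probe of each member, 1 panel per gene, with the 3 tumours labelled uPA overexpression left of the 3 empty vector tumours a bar at each group mean and error bars of 1 SD (log2 scale; the Tlr9 panel is not above background). Tlr7 sits between 7.69 and 7.98 in the tumours labelled uPA overexpression and between 6.56 and 6.96 in the empty vector tumours, while Tlr3 sits between 5.72 and 5.86 in the tumours labelled uPA overexpression and between 6.41 and 6.59 in the empty vector tumours.

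Among the surface receptors, Tlr1, which pairs with Tlr2 to bind triacylated lipopeptides, changed most. Tlr1 read 8.03, 7.96 and 7.74 in the tumours labelled uPA overexpression, against 7.02, 7.02 and 7.09 in the empty vector tumours. Every array labelled uPA overexpression was above every empty vector array. The difference was 0.86 (SE 0.106, adjusted p = 0.0123 in limma, 95% interval 0.61 to 1.11), a 1.82-fold higher intensity. Raw intensities were 311.8, 302.7 and 287.5 in the tumours labelled uPA overexpression, against 192.4, 175.2 and 182.4 in the empty vector tumours.

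Tlr2, the receptor for bacterial lipoproteins, read 9.96, 9.90 and 10.25 in the tumours labelled uPA overexpression, against 9.55, 9.22 and 9.50 in the empty vector tumours. The groups were separated by a small gap, and Tlr2 rose by 0.61 (SE 0.138, limma adjusted p = 0.0481). That call was lost in all 6 fits that left out 1 array, where adjusted p ranged from 0.0760 to 0.133. Tlr6, which pairs with Tlr2 for diacylated lipopeptides, read 8.39, 8.31 and 8.34 in the tumours labelled uPA overexpression, against 7.93, 7.99 and 7.91 in the empty vector tumours. Its arrays lay close together within each group, and Tlr6 rose by 0.40 (SE 0.0852, limma adjusted p = 0.0412). That call was kept in only 1 of the 6 fits without 1 array (adjusted p between 0.0466 and 0.129), and Tlr6 did not pass when arrays were scaled to their 75th percentile (0.0613) or its probes were averaged (0.0977). A second, dimmer Tlr6 probe read 6.06, 6.10 and 5.91 in the tumours labelled uPA overexpression, against 5.85, 5.52 and 5.99 in the empty vector tumours, and its groups overlapped (difference 0.24, adjusted p = 0.411 in a limma fit over all probes).

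Tlr4, the lipopolysaccharide receptor, did not pass the test. Its highest probe read 9.01, 8.93 and 8.80 in the tumours labelled uPA overexpression, against 8.71, 8.86 and 8.89 in the empty vector tumours. The groups overlapped, and the difference was 0.09 (SE 0.102, limma adjusted p = 0.632), with a 95% interval of -0.15 to 0.34 that excludes the sizes measured for Tlr1, Tlr7 and Tlr13. The other probes of Tlr4 differed by 0.25 and 0.02, with adjusted p of 0.337 and 0.981 in the fit over all probes. Tlr5, the flagellin receptor, was dim and read 5.94, 5.74 and 6.13 in the tumours labelled uPA overexpression, against 5.50, 5.95 and 5.33 in the empty vector tumours. Its groups overlapped (difference 0.34, SE 0.183, limma adjusted p = 0.319, 95% interval -0.09 to 0.77).

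The endosomal receptors moved in both directions. Tlr7, a receptor for single-stranded RNA, read 7.98, 7.72 and 7.69 in the tumours labelled uPA overexpression, against 6.70, 6.96 and 6.56 in the empty vector tumours. It had the largest difference of the members, 1.05 (SE 0.138, limma adjusted p = 0.0140, 95% interval 0.73 to 1.38), and its groups did not overlap. Tlr8, its neighbour on chromosome X and also a receptor for RNA, read 6.78, 6.20 and 6.58 in the tumours labelled uPA overexpression, against 5.94, 5.32 and 5.63 in the empty vector tumours. Its groups did not overlap either, but the difference of 0.88 (SE 0.202) had a limma adjusted p of 0.0501 and did not pass. Tlr8 was dim, and its difference became 0.48 when the background step was left out and 0.47 on the deposited processed scale, where it passed with adjusted p of 0.0424 and 0.0434.

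Tlr13, which binds bacterial ribosomal RNA in mice, rose by 0.77 (SE 0.0948, limma adjusted p = 0.0123). It read 9.36, 9.39 and 9.57 in the tumours labelled uPA overexpression, against 8.65, 8.68 and 8.66 in the empty vector tumours. The empty vector arrays lay within a narrow band below all others. A second Tlr13 probe read 6.99, 6.74 and 7.10 in the tumours labelled uPA overexpression, against 6.24, 6.50 and 6.54 in the empty vector tumours without overlap, and its difference was 0.51 (adjusted p = 0.0977 in the limma fit over all probes).

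Tlr3, the receptor for double-stranded RNA, moved the other way. It read 5.84, 5.72 and 5.86 in the tumours labelled uPA overexpression, against 6.41, 6.44 and 6.59 in the empty vector tumours. The groups did not overlap, and Tlr3 fell by 0.67 (SE 0.0964, limma adjusted p = 0.0163). The probe was near background, with raw intensities of 112.8, 110.0 and 117.7 in the tumours labelled uPA overexpression, against 146.9, 134.7 and 144.5 in the empty vector tumours, and the size of the difference depends on the background step: it was -0.38 without that step and -0.36 on the deposited processed scale, and it passed in both. It passed in only 2 of the 6 fits without 1 array and was lost without replicate 1 or replicate 3 of either group, with adjusted p up to 0.0607. Tlr9, the receptor for unmethylated CpG DNA, had raw intensities of 76.4 to 79.9 at its brighter probe in the tumours labelled uPA overexpression and of 66.4 to 72.8 in the empty vector tumours. Both Tlr9 probes were not well above background on any array, with detection p between 0.123 and 0.906. Tlr11 and Tlr12, which are no members, were likewise not above background.

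By the thresholds the study states (more than 1.5-fold and p under 0.05, with the test not named), applied to the limma values without adjustment, 5 members were higher (Tlr1, Tlr2, Tlr7, Tlr8 and Tlr13) and 1 was lower (Tlr3). Over all genes, 3.13% were higher and 4.36% lower by the same thresholds. Tlr6 was not among the 5 since its 1.32-fold change is below the fold threshold. These folds are on the background-corrected scale used here, and the outcome depends on that scale. On the deposited processed scale, the log2 differences of Tlr2 (0.57), Tlr8 (0.47) and Tlr3 (-0.36) were smaller in size than 1.5-fold. Those of Tlr1 (0.64), Tlr7 (0.75) and Tlr13 (0.69) were larger.

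**Figure D2:**
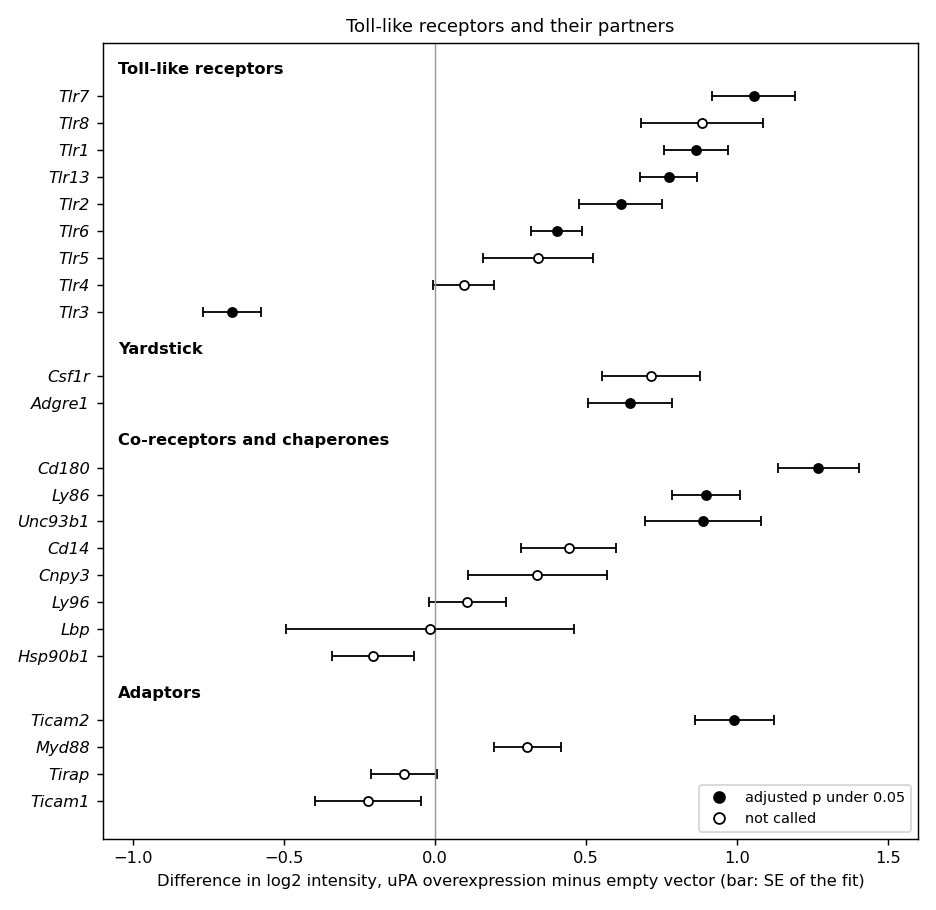
Difference in log2 intensity (horizontal axis), labelled uPA overexpression minus empty vector, of the tested members, the yardstick genes, co-receptors and chaperones, and adaptors, with error bars of 1 SE and filled points for adjusted p under 0.05. Among the members Tlr7 is highest at 1.05 and Tlr3 lowest at -0.67, and Csf1r and Adgre1 lie at 0.71 and 0.65.

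The members were next set against the macrophage yardstick. Csf1r, the receptor for the macrophage growth factors CSF-1 and IL-34, read 11.50, 10.95 and 11.07 in the tumours labelled uPA overexpression, against 10.32, 10.44 and 10.61 in the empty vector tumours (difference 0.71, SE 0.163, limma adjusted p = 0.0501). Adgre1, which encodes the macrophage antigen F4/80, read 11.56, 11.13 and 11.26 in the tumours labelled uPA overexpression, against 10.57, 10.83 and 10.61 in the empty vector tumours (difference 0.65, SE 0.140, limma adjusted p = 0.0436). Neither gene's groups overlapped at these probes, the brightest of each gene, and in the 6 fits without 1 array Adgre1 was called in 1 and Csf1r in 0. A dimmer Csf1r probe differed by 1.31 (adjusted p = 0.0149 in the fit over all probes), and dimmer Adgre1 probes by 0.60 and 1.37 (adjusted p = 0.076 and 0.114), so the size of the yardstick depends on the probe. Their mean was 11.24 ± 0.25 in the tumours labelled uPA overexpression and 10.56 ± 0.11 in the empty vector tumours (SD, n = 3 each), a difference of 0.68.

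After this mean was taken off each array, 0 of the 9 members rose and 2 fell, Tlr3 and Tlr4, by the same limma fit (2 members at an unadjusted p under 0.05). Of all genes, 0.434% rose and 78.7% fell relative to the yardstick, so a fall is the usual result of this subtraction. The same mean is taken off every gene, so its spread between arrays is shared by all genes. The fit pools the spread over genes as if they were independent. The p-values and intervals relative to the yardstick are therefore too narrow, here and below. Tlr3 fell by 1.35 (SE 0.21, adjusted p = 0.000101), and passed in all 6 fits without 1 array. Tlr4 differed by -0.59 (SE 0.207, adjusted p = 0.0166), and passed in only 2 of those 6, with adjusted p between 0.0095 and 0.0927. It read -2.51, -2.11 and -2.36 relative to the yardstick in the tumours labelled uPA overexpression, against -1.73, -1.78 and -1.72 in the empty vector tumours.

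The other 7 members did not pass this test against the yardstick, although the calls of Tlr5 and Tlr6 depended on the setting. Tlr5 fell relative to it without background correction (-0.50, adjusted p = 0.0218), with an offset of 50 (adjusted p = 0.0411), on the deposited processed scale (0.0204) and with the mean of all probes (0.0176). Tlr6 fell relative to it with the mean of all probes (adjusted p = 0.00311) and against the mean of the macrophage list (0.0385). Tlr1 differed from it by 0.18 (95% interval -0.25 to 0.62), Tlr13 by 0.09 (-0.36 to 0.54), Tlr2 by -0.06 (-0.54 to 0.41) and Tlr8 by 0.21 (-0.27 to 0.68). Tlr7 differed by 0.37 (-0.06 to 0.81), Tlr6 by -0.28 (-0.71 to 0.16) and Tlr5 by -0.34 (-0.81 to 0.13). These intervals reach beyond 0.4 in at least one direction, although they are too narrow because all genes share the yardstick's spread. A change equal to that of the yardstick was therefore not shown.

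**Figure D3:**
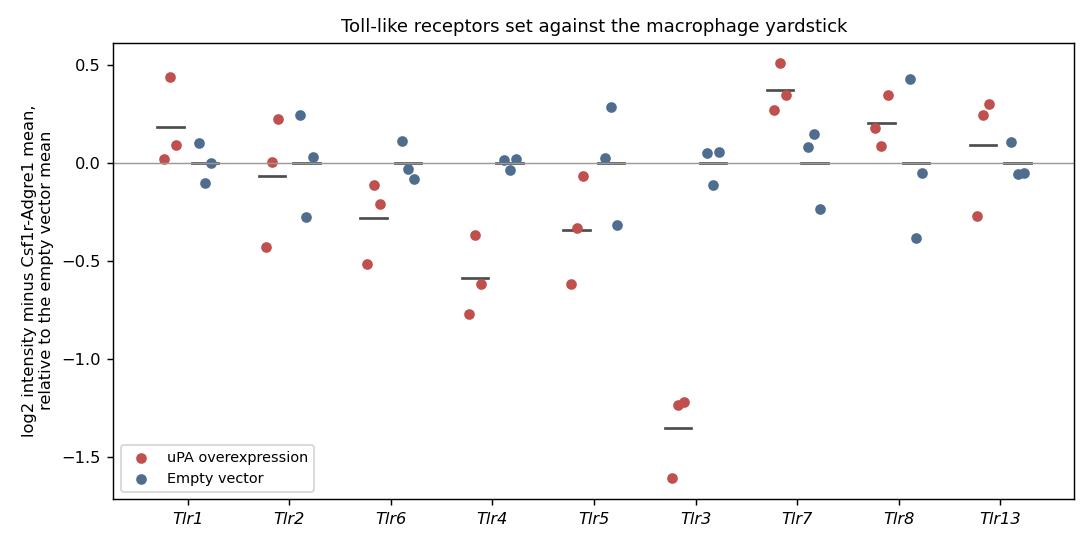
Log2 intensity of each tested member minus the mean of Csf1r and Adgre1 on the same array, shown relative to the mean of the empty vector arrays, which lies at 0; the 3 tumours labelled uPA overexpression stand left of the 3 empty vector tumours and bars mark group means. The means of the tumours labelled uPA overexpression are -1.35 for Tlr3 and -0.59 for Tlr4, without overlap, and the groups of Tlr2 overlap.

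The genes whose pattern over the 6 arrays was nearest to each member, by Pearson r across all tested genes, are given as a description, since groups and arrays are shared by all. For Tlr1 they were Sdf2l1 (0.996) and Aif1 (0.995), a macrophage gene. For Tlr6 they were Hfe (0.997) and Ly86 (0.994), for Tlr7 Necap2 (0.999) and Ticam2 (0.997), and for Tlr13 Emp3 (0.999) and Dok3 (0.997). Tlr2 was nearest to Hirip3 and Bsn, Tlr3 to Gng11 and Zxdb, Tlr4 to Dnajc30 and Herc1, Tlr5 to Cep164 and Pkia, and Tlr8 to Snrnp35 and Prpf18. The number of genes with r above 0.95 ranged from 14 for Tlr4 to 228 for Tlr7. The difference between the 2 groups is part of every such value.

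Of the genes that help receptors reach or bind their ligands, 3 of 8 tested rose, 0 fell, and the median difference was 0.39. For this list and each list below, the shares of all genes to set beside the counts are 2.62% that rose and 3.46% that fell. Cd180, a Toll-like-receptor-related surface protein, read 6.88, 6.74 and 6.93 in the tumours labelled uPA overexpression, against 5.55, 5.37 and 5.82 in the empty vector tumours. It rose by 1.27 (SE 0.135, limma adjusted p = 0.0109), but its dimmer probes differed by 0.48 and, in the opposite direction, by -0.51, with adjusted p of 0.187 and 0.229 in the fit over all probes. Its partner Ly86 rose by 0.90 (adjusted p = 0.0126), and Unc93b1, which carries endosomal receptors to their compartment, by 0.89 (SE 0.190, adjusted p = 0.0427). The lipopolysaccharide co-receptor Cd14 differed by 0.44 (adjusted p = 0.162), Ly96, the partner of Tlr4, by 0.11, and the chaperones Cnpy3 and Hsp90b1 by 0.34 and -0.21. Leaving out empty vector replicate 1 left 0 of the 3 called, leaving out empty vector replicate 3 left 1, and leaving out any array labelled uPA overexpression left 2. Unc93b1 was called in only 1 of these 6 fits (adjusted p up to 0.132).

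Among the adaptors, 1 of 4 tested rose and 0 fell, with a median of 0.10. Ticam2, which links Tlr4 to Ticam1, read 7.18, 6.90 and 6.91 in the tumours labelled uPA overexpression, against 6.04, 6.17 and 5.82 in the empty vector tumours. It rose by 0.99 (SE 0.131, limma adjusted p = 0.0142), a call lost without empty vector replicate 1 or replicate 3. Myd88 differed by 0.30 (adjusted p = 0.165), Tirap by -0.10 and Ticam1 by -0.22. Of 18 signalling genes downstream, among them kinases, adaptors, inhibitors and transcription factors, 1 rose, 0 fell, and the median was -0.11. The gene that rose was Pik3ap1, an adaptor to PI3-kinase (0.81, limma adjusted p = 0.0123), and Irf5, Irak2 and Tollip differed by 0.33, -0.30 and -0.29 without passing.

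Target genes and endogenous ligands of the pathway were counted in the same way. Of 15 genes that NF-kappa B or interferon induce, 1 rose and 3 fell, with a median of -0.40. The neutrophil attractant Cxcl1 fell by 1.40 (limma adjusted p = 0.0109), reading 9.26, 9.78 and 9.60 in the tumours labelled uPA overexpression, against 11.01, 10.83 and 11.00 in the empty vector tumours. Il6 fell by 1.00 (adjusted p = 0.0309) and was detected on 2 arrays labelled uPA overexpression and on 3 empty vector arrays. Its signal was near background, with mean raw intensities of 91.6 and 123.7 in these groups. On the deposited processed scale the Il6 difference was -0.47. No array labelled uPA overexpression detected Cxcl2 (difference -0.56, limma adjusted p = 0.0377), and its signal was near background in both groups. Raw intensities were 77.1, 78.3 and 83.5 in the tumours labelled uPA overexpression, against 92.0, 93.0 and 93.7 in the empty vector tumours. On the deposited processed scale the Cxcl2 difference was -0.25. A second Cxcl2 probe was not above background on any array. The adhesion molecule Icam1 rose by 0.69 (adjusted p = 0.0213). Cxcl10 differed by 1.00 with groups that overlapped and did not pass (limma adjusted p = 0.247). Over the 15 genes, 5 differences were above 0 and 10 below. Of 8 endogenous ligands tested, 0 rose and 1 fell, S100a9 (-1.18, limma adjusted p = 0.0276), while Tnc, Bgn and Vcan differed by -0.99, -0.69 and -0.75 without passing. In the 6 fits without 1 array, Cxcl1 was called in 5, Il6 and Icam1 in 1 each (adjusted p up to 0.103 and 0.069), Cxcl2 in 0 (0.0641 to 0.122) and S100a9 in 2.

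Markers of cell types moved beside the members. Of 13 macrophage markers tested, 9 rose and 0 fell, against 2.62% and 3.46% of all genes, and the median was 0.80. The 4 that did not pass were Cd163 (0.56), Mpeg1 (0.27), Ctss (0.25) and Mertk (0.15). Their summed linear level was 50067 to 59112 in the tumours labelled uPA overexpression and 23064 to 29727 in the empty vector tumours, with log2 differences of 0.90 for Itgam and 0.88 for C1qb. Lyz2, the brightest of the list, made up 21231 to 25965 of that sum in the tumours labelled uPA overexpression and 5524 to 11141 in the empty vector tumours. Without Lyz2, left out after its values were seen, the sum was 28661 to 33148 in the tumours labelled uPA overexpression and 16828 to 18586 in the empty vector tumours. Without empty vector replicate 1 only 2 of the 13 markers passed. Of 7 mast cell markers, 6 rose, with Tpsb2 at 2.08 and Cpa3 at 1.87. Their summed level was 2866 to 3718 in the tumours labelled uPA overexpression and 916 to 1293 in the empty vector tumours. Neutrophil markers gave 0 rises and 1 fall of 5 (S100a9), plasmacytoid dendritic cell markers 0 and 0 of 4 with Siglech at 0.39 (adjusted p = 0.379), dendritic cell markers 0 and 0 of 4, T cell markers 0 and 0 of 4, and B cell markers 0 and 0 of 1. Of 3 natural killer cell markers 1 rose (Nkg7, 0.90), of 6 epithelial markers 3 fell, among them Krt14 (-1.40) and Cldn3 (-0.94), of 6 fibroblast markers 1 fell (Pdgfrb, -0.80), and of 4 endothelial markers none passed. In the 6 fits without 1 array, Nkg7 was called in 1, Pdgfrb in 2, Cldn3 in 3 and Krt14 in 5. Among defining markers, Cd68 and Fcer1g of macrophages and Ly6g, Mmp8, Camp and Ngp of neutrophils were not tested. The part of these cell types in the receptor differences was not tested.

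**Figure D4:**
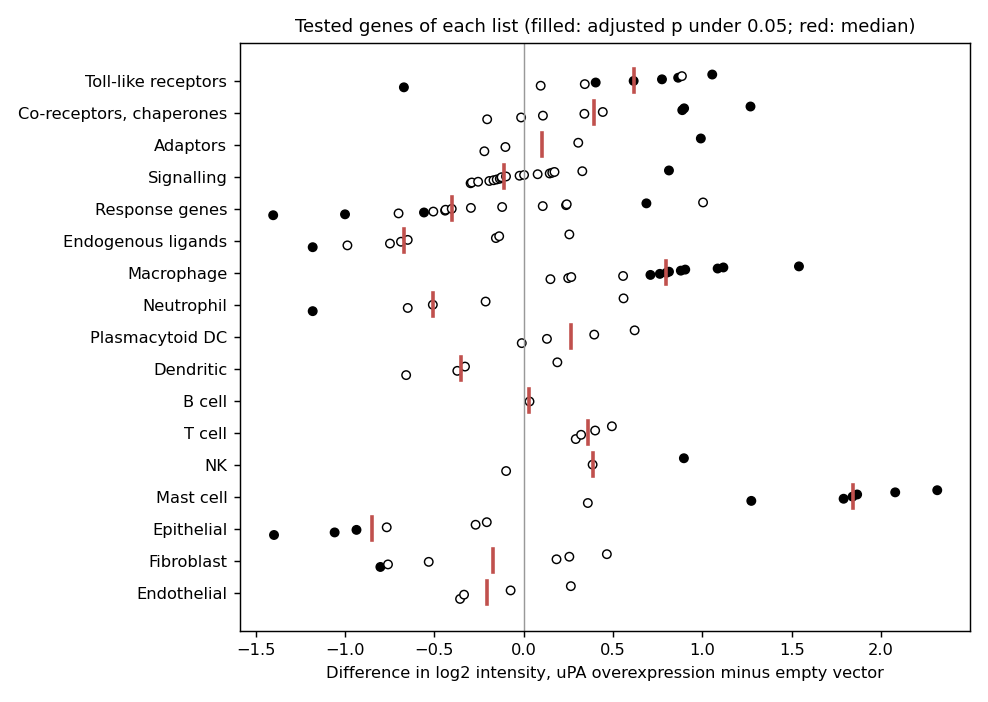
Log2 differences, labelled uPA overexpression minus empty vector, of the tested genes of each list, with each gene as a point (filled for adjusted p under 0.05) and the list's median as a red bar. Macrophage markers centre at 0.80 and the Toll-like receptors at 0.61, while response genes centre at -0.40 and endogenous ligands at -0.67.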

How the data were processed

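The deposited table of raw probe intensities, per the file headers, gives an intensity and a detection column per array, and the latter, deposited as a fraction between 0 and 1, was read as 1 minus the detection p because bright probes sit near 1. The deposited processed values are log2 values made by the authors in GeneSpring GX 11.0, per the series' design text. Their column medians lie between 0.00197 and 0.0042, their scale and direction were matched to the raw arrays, and the level removed from each probe is unknown.

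Raw rows carry bead addresses, so they were joined to probe names by their pattern over the 6 arrays (45209 of 45281 rows, all 15 member probes). A self-test on shuffled copies of the fitted values, with the spread of the accepted matches, gave no wrong match. Such a test shows how distinct the rows are and cannot show a wrong match among the real rows. The join was not checked against a list of bead addresses. Intensities were background-corrected (normexp, offset 16, controls inferred from detection p), quantile-normalised and tested with limma 3.58.1 in R 4.3.3 on 1 probe per gene, the one with the highest mean. The procedure was tested on simulated data, but the outcome is not reported here and no support for the calls is drawn from it. Members, lists and named genes (all members, their accessory genes and adaptors, those with the smallest p of the other lists, and the nearest genes by correlation) were chosen with earlier results of these data known. Precision is limited by 3 arrays per group.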

Additional observations from a re-analysis of the deposited data

How the results depend on the processing

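The members' differences kept their sign in every alternative tried: no background correction, an offset of 50, scaling to the 75th percentile, no filter, detection on all 6 arrays, the processed values as deposited, a trended and robust prior, the mean of all probes, a block and the 6 fits without 1 array. Called genes numbered 659, with 44 to 613 over the fits without 1 array. Called members numbered 6, with 0 to 5 over those fits, and members called relative to Csf1r and Adgre1 numbered 2, with 1 to 2. The replicate numbers did not pair the arrays (correlations of same-numbered deviations -0.11, -0.22 and 0.12, and not every array correlated best with its own number). With the replicate number as a block, 126 genes, 2 members and 1 member relative to the yardstick were called, and the mean of all probes called 4 relative to it. The 2 members called with the block were Tlr7 and Tlr8 (limma adjusted p = 0.0494 and 0.0434), and Tlr8 was not called in the main fit. Tlr1, Tlr2, Tlr3, Tlr6 and Tlr13 lost their calls with the block. Relative values that changed sign were those of Tlr1 (-0.0025 without background correction, -0.017 in the deposited processed values, -0.078 with the mean of all probes), Tlr8 (-0.18, -0.19 and -0.057 in the same settings, and -0.082 with an offset of 50), Tlr13 (-0.30 with the mean of all probes, -0.010 without uPA overexpression replicate 3, in a range up to 0.27 without 1 array) and Tlr2 (0.12 without uPA overexpression replicate 1, 0.057 without empty vector replicate 1, in a range down to -0.21). Among other genes, Lbp turned to 0.30 without uPA overexpression replicate 1 and 0.48 without empty vector replicate 2 (lowest -0.41), and Cd79b to -0.00047 with scaling to the 75th percentile and to as low as -0.075 without 1 array (highest 0.17). The cause was not tested. Signals near background limit Tlr3, Tlr5, Tlr8 and Tlr9 among the members, and also Il6 and Cxcl2.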
